A study of Rattus norvegicus with 4 samples.

Results

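The Eph receptors and ephrins described here are 10 genes, picked by gene name from the 18755 genes listed for each library. They are 4 EphA receptors (Epha3, Epha4, Epha5 and Epha7), 2 EphB receptors (Ephb1 and Ephb2), 1 ephrin-A (Efna5) and 3 ephrin-Bs (Efnb1, Efnb2 and Efnb3). All 10 had a level of at least 1 FPKM (reads scaled to gene model length and to the library's summed count) in at least 1 library and so entered the comparisons across 12394 genes. The cells were primary cells of the cerebral cortex of SD rats at embryonic day 16, seeded at 100000 cells per well and kept for 24 h on a hydrogel. The hydrogels were N-SFMA, L-SFMA, NL-SFMA and, as the plain material, SFMA, with 5 parallel wells and 1 library for each. The treatment labels spell 2 of these L@SFMA and NL@SFMA. The sources used here do not say what N or L abbreviates, nor if wells were pooled before sequencing. The series asks how an adhesion cue between cells, built into a hydrogel, acts on neural growth.

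Eph receptors are receptor tyrosine kinases of the cell surface, and their ligands, the ephrins, are held on the membrane of the neighbouring cell. A signal therefore needs contact between cells. Ephrin-As are anchored by a lipid and bind mainly EphA receptors, while ephrin-Bs span the membrane and bind mainly EphB receptors, with Epha4 able to bind both. Signals run forward into the cell with the receptor and in reverse into the cell with the ephrin. In the developing brain the system is known for repelling growth cones, guiding axons to their targets and sorting cells at boundaries.

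Summed read counts were between 14172205 (NL-SFMA) and 17553098 (SFMA) per library. With 1 library per hydrogel no spread between replicate cultures was available, and no p-value is given. Each fold below is a ratio of count shares, with an exact (Clopper-Pearson) 95% interval that covers counting error only, not spread between cultures. It treats reads as independent. Reads amplified by PCR are not independent molecules, so the interval can be too narrow even for counting error. Of the markers checked against the labelled tissue, the neuronal tubulin Tubb3 was at 1659 FPKM or more in every library. Markers of endothelial cells and pericytes were at most 0.799 FPKM (7 of 8 listed genes found, with Cdh5 at 0 on N-SFMA and at most 0.297 FPKM elsewhere) and those of meningeal fibroblasts at most 0.851 FPKM (5 of 5 found, with Dcn, Lum and Foxc1 at 0 in at least 1 library).

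The EphA receptors were higher on N-SFMA, L-SFMA and NL-SFMA than on SFMA. In bulk RNA, fewer cells of a type and less RNA per cell cannot be told apart, for this and every other level. Epha3, a receptor with high affinity for ephrin-A5, was at 25.2 FPKM on N-SFMA, 29.3 FPKM on L-SFMA and 35.8 FPKM on NL-SFMA, against 13.7 on SFMA. Its fold over SFMA was 1.83 (1.68 to 2.01) on N-SFMA, 2.13 (1.96 to 2.33) on L-SFMA and 2.61 (2.39 to 2.84) on NL-SFMA. Epha4, the receptor that binds both kinds of ephrin and halts corticospinal axons at the midline in mice, was at 22.4, 31.3 and 39.6 FPKM on N-SFMA, L-SFMA and NL-SFMA and at 14.2 FPKM on SFMA. That is a fold over SFMA of 1.58 (1.48 to 1.68), 2.20 (2.07 to 2.34) and 2.79 (2.63 to 2.96) in the same order. The 4 levels of both genes were ordered NL-SFMA, L-SFMA, N-SFMA, SFMA from high to low, with each neighbouring pair apart beyond counting error.

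Epha5, a neuronal receptor for ephrin-As, had the largest fold over SFMA of the 10 genes on L-SFMA and NL-SFMA as measured, while Epha7 and Epha3 had larger folds on N-SFMA, and Epha3 differed more on all 3 with the length trend removed, among the EphA receptors. It was at 14.2 FPKM on N-SFMA, 21.0 FPKM on L-SFMA and 26.9 FPKM on NL-SFMA, against 7.95 on SFMA, or 2040 reads on NL-SFMA against 747 on SFMA. The fold was 1.78 (1.63 to 1.96) on N-SFMA, 2.63 (2.42 to 2.87) on L-SFMA and 3.38 (3.11 to 3.68) on NL-SFMA. Epha7, known in mice for roles in cortical progenitor survival and in topographic projections, had the lowest level of the 4 receptors of its class. It was at 2.92, 3.21 and 4.26 FPKM on N-SFMA, L-SFMA and NL-SFMA and at 1.53 FPKM on SFMA, which rests on 156 reads. With fewer reads the intervals were wider, with folds of 1.91 (1.56 to 2.34), 2.10 (1.73 to 2.56) and 2.79 (2.30 to 3.39), and N-SFMA and L-SFMA did not differ beyond counting error.

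The EphB receptors were higher than on SFMA too, by smaller folds. Ephb1, which in mice steers retinal axons at the optic chiasm, was at 29.0 FPKM on N-SFMA, 29.7 FPKM on L-SFMA and 36.4 FPKM on NL-SFMA, against 22.7 on SFMA. The fold over SFMA was 1.27 (1.20 to 1.36), 1.31 (1.23 to 1.39) and 1.60 (1.51 to 1.70), and N-SFMA and L-SFMA did not differ beyond counting error. Ephb2, a receptor with roles in commissural axons and in dendritic spines in mice, was at 40.7, 48.9 and 43.3 FPKM on N-SFMA, L-SFMA and NL-SFMA and at 31.0 FPKM on SFMA. Its highest level was on L-SFMA (1.58-fold over SFMA, 1.49 to 1.67), and NL-SFMA was 1.40-fold over SFMA (1.31 to 1.49).

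As measured, the ephrins did not share the order of the EphA receptors. Efnb1, whose product is known in mice for keeping cortical progenitors in their undifferentiated state, was the 1 gene of the 10 with its highest level on SFMA. It was at 59.5 FPKM on N-SFMA, 71.8 FPKM on L-SFMA and 35.8 FPKM on NL-SFMA, against 73.9 on SFMA. NL-SFMA stood at 0.485 times the SFMA level (0.458 to 0.514) and N-SFMA at 0.805 times (0.768 to 0.844), while L-SFMA and SFMA did not differ beyond counting error (0.973, 0.931 to 1.02). Efnb2, an ephrin-B of neurons that also marks arteries, was at 66.2, 80.6 and 63.1 FPKM on N-SFMA, L-SFMA and NL-SFMA and at 47.8 FPKM on SFMA. The folds over SFMA were 1.38 (1.27 to 1.51), 1.69 (1.55 to 1.83) and 1.32 (1.21 to 1.44). The gene model of Efnb2 in this table is 1158 bases, the shortest of the 10, so its FPKM relative to the other genes depends on that length.

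Efnb3, the midline repellent of corticospinal axons in mice, was at 34.6 FPKM on N-SFMA, 35.4 FPKM on L-SFMA and 26.7 FPKM on NL-SFMA, against 27.0 on SFMA. It was higher on N-SFMA (1.28-fold, 1.19 to 1.37) and L-SFMA (1.31-fold, 1.22 to 1.40), and on NL-SFMA it did not differ from SFMA beyond counting error (0.986, 0.913 to 1.07). Efna5, a repellent of retinal axons, was near the floor of the comparison at 1.38, 1.84 and 1.67 FPKM on N-SFMA, L-SFMA and NL-SFMA and 1.49 FPKM on SFMA. Its 93 to 131 reads per library did not separate any neighbouring pair of hydrogels. Over the 10 genes, 5 had their highest level on NL-SFMA (the 4 EphA receptors and Ephb1), 4 on L-SFMA and 1 on SFMA, and 9 of the 30 neighbouring pairs did not differ beyond counting error. Of all 12394 genes, 32.2% were highest on NL-SFMA, 22.3% on L-SFMA and 36.7% on SFMA. The order SFMA, N-SFMA, L-SFMA, NL-SFMA from low to high was held, as measured, by 5 of the 10 genes and by 18% of all genes.

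**Figure D1:**
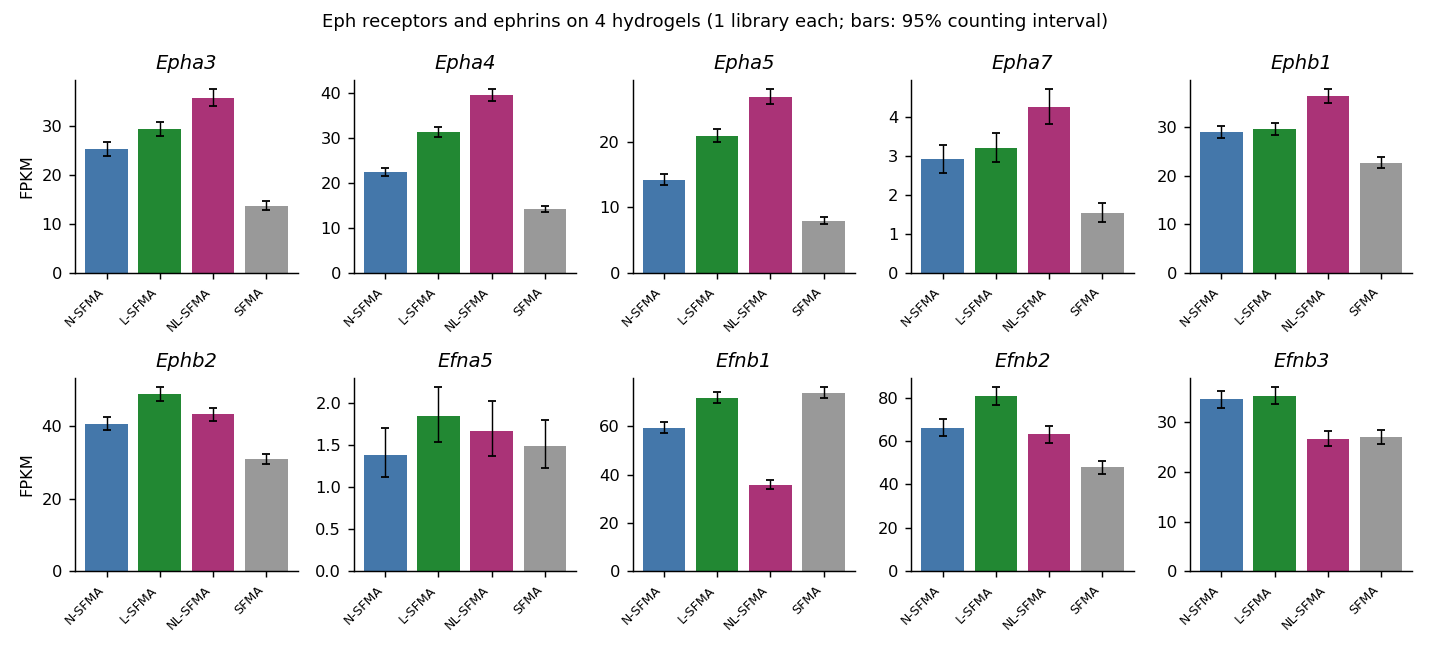
Level of each gene (FPKM, axes from 0) on N-SFMA, L-SFMA, NL-SFMA and SFMA, 1 library each, with error bars for the 95% counting interval. The EphA receptors and Ephb1 are highest on NL-SFMA, while Efnb1 is at 35.8 FPKM there and at 73.9 FPKM on SFMA.

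Genes past 2-fold were counted on the scale of log2(FPKM + 1), which draws the folds of low genes toward 0. On NL-SFMA against SFMA 4 of the 10 were at least 2-fold higher, where 10.1% of all genes were, and 1 was at least 2-fold lower, where 15.1% were. The higher ones were Epha5 (1.64), Epha4 (1.42), Epha3 (1.32) and Epha7 (1.06), and the lower one was Efnb1 (-1.02). On L-SFMA against SFMA 3 of the 10 were at least 2-fold higher, against a background of 3.32%, namely Epha5 (1.29), Epha4 (1.09) and Epha3 (1.04), and 0 were lower, against 3.04%. Epha3 was under 2-fold there with TMM scaling (0.99) and with DESeq2 size factors (0.97). On N-SFMA against SFMA 0 of the 10 passed in either direction, with backgrounds of 0.855% higher and 2.65% lower. At 1.5-fold, 4 of the 10 were higher on N-SFMA (7.24% of all genes), all EphA receptors, with 0 lower (10.7%). The corresponding counts were 6 on L-SFMA (14.8%) with 0 lower (11.1%), and 5 on NL-SFMA (21.6%) with 1 lower (29.3%). The median difference of the 6 receptors was 0.63, 0.89 and 1.19 on N-SFMA, L-SFMA and NL-SFMA, and that of the 4 ephrins 0.14, 0.28 and 0.04. Over all genes the medians were -0.02, 0.05 and -0.10. These 3 comparisons share the SFMA library.

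The call of Efnb1 lay at the threshold. Its difference on NL-SFMA was -0.95 with TMM scaling, -0.93 with DESeq2 size factors and -0.98 with mitochondrially encoded genes left out of the total, so that 0 of the 10 were 2-fold lower under each of these. Mitochondrially encoded genes held 5.89% of the counts on NL-SFMA and 2.23% to 2.68% in the other libraries.

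**Figure D2:**
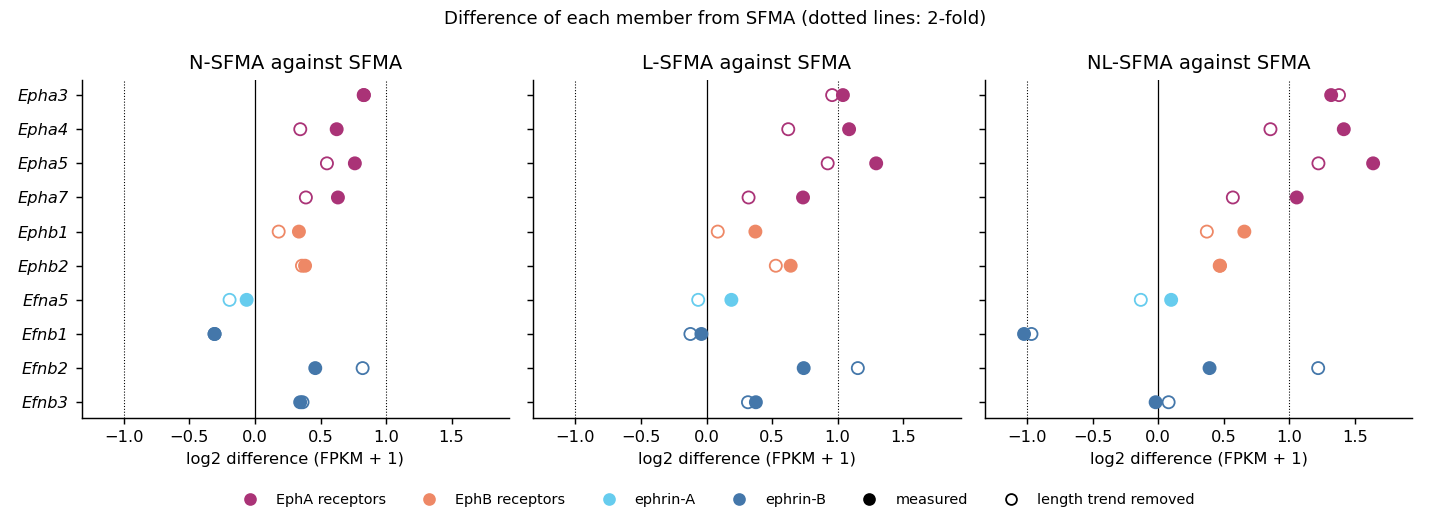
Difference of each gene from SFMA on the scale of log2(FPKM + 1) for N-SFMA, L-SFMA and NL-SFMA, as measured (filled) and with the trend along gene model length removed (open), with dotted lines at 2-fold. The EphA receptors lie between 1.06 and 1.64 on NL-SFMA as measured, and Efnb1 at -1.02.

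Differences were also read against gene length. Across the 12394 genes the difference between NL-SFMA and SFMA correlated with log2 gene model length (Pearson's r = 0.50), a description of genes that share the same 2 libraries. The models of the 10 genes ran from 1158 to 6367 bases, with a median of 3896, against 2968.5 over all tested genes. Subtracting a lowess fit of the difference on length left Epha3 at 1.38, Epha5 at 1.22, Epha4 at 0.86 and Epha7 at 0.57 on NL-SFMA. On L-SFMA it left Epha3 at 0.96, Epha5 at 0.92, Epha4 at 0.62 and Epha7 at 0.32, so that no EphA receptor was then past 2-fold. On N-SFMA it left Epha3 at 0.83, Epha5 at 0.55, Epha7 at 0.39 and Epha4 at 0.35, and of the 10 genes Epha3 and Efnb2 were then past 1.5-fold, in place of the 4 EphA receptors. Efnb2, with its short model, moved the other way, to 0.82, 1.15 and 1.22 on N-SFMA, L-SFMA and NL-SFMA. It thus rose in the order of the EphA receptors as measured. Epha7 and Ephb1 (0.18, 0.09 and 0.37 on the same hydrogels) no longer rose from N-SFMA to L-SFMA. Once the trend was removed, 3 of the 10 were thus 2-fold higher on NL-SFMA (Epha3, Epha5 and Efnb2; 8.07% of all genes), 1 on L-SFMA (Efnb2; 2.31%) and 0 on N-SFMA (1.07%). None of the 10 was 2-fold lower, where 7.42% of all genes were on NL-SFMA, 1.3% on L-SFMA and 1.33% on N-SFMA. Efnb1 stood at -0.97 on NL-SFMA, where the fit at its length was -0.06. The part of transcript length or RNA quality in the remaining differences was not tested.

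**Figure D3:**
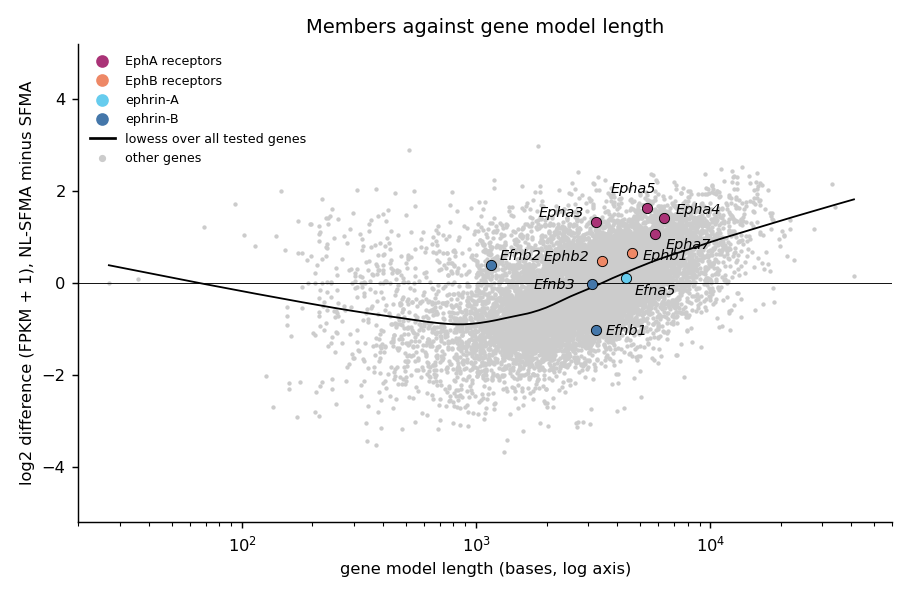
Difference between NL-SFMA and SFMA, on the scale of log2(FPKM + 1), against gene model length in bases (log axis) for 12394 genes (grey), with the 10 genes coloured by class and the lowess fit as a line. Epha3 (1.32) and Efnb1 (-1.02) lie at nearly the same length, on either side of the fit.

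A receptor and an ephrin of almost equal model length can be compared within a library, where the scaling between libraries cancels. Epha3 has a model of 3247 bases and Efnb1 one of 3258. The FPKM of Epha3 was 0.424 times that of Efnb1 on N-SFMA (0.396 to 0.453), 0.408 times on L-SFMA (0.384 to 0.433) and 0.999 times on NL-SFMA (0.932 to 1.07), against 0.186 times on SFMA (0.172 to 0.201). N-SFMA and L-SFMA had overlapping intervals, and NL-SFMA and SFMA lay apart from them on opposite sides. The ratio of Ephb2 to Efnb1 was ordered alike, at 0.684, 0.681 and 1.21 on N-SFMA, L-SFMA and NL-SFMA and 0.420 on SFMA. Both ratios share Efnb1. The ratio of Ephb2 to Efnb2, with models of 3432 and 1158 bases, was not ordered alike. It was at 0.615, 0.607 and 0.687 on N-SFMA, L-SFMA and NL-SFMA and 0.648 on SFMA, with overlapping intervals.

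The 12 further genes of the family were read from a fixed list, and 8 of them reached 1 FPKM. Of those at 5 FPKM or more, the ephrin-As Efna2, Efna3 and Efna4 had the largest differences on NL-SFMA. Efna4 was at 19.0, 20.1 and 8.56 FPKM on N-SFMA, L-SFMA and NL-SFMA and 25.0 FPKM on SFMA, a fold of 0.342 on NL-SFMA (0.290 to 0.402). Efna2 was at 29.6, 31.6 and 15.7 FPKM on N-SFMA, L-SFMA and NL-SFMA against 31.9 on SFMA, and Efna3 at 16.1, 15.0 and 7.85 FPKM against 14.3. The receptor Ephb4, a vascular partner of Efnb2, was at 6.24 FPKM on NL-SFMA and 8.78 FPKM on SFMA. Unlike the 2 EphB receptors among the 10, it was thus lower on NL-SFMA, with a fold of 0.710 (0.623 to 0.809). Of the 8 genes, 1 was at least 2-fold lower on NL-SFMA (15.1% of all genes) and 0 higher (10.1%). Their median was -0.44, with 6 below 0 and 2 above. With the length trend removed the differences on NL-SFMA were -0.75 for Efna4, -0.45 for Efna3 and -0.16 for Efna2. None of the 8 was then past 2-fold, where 8.07% of all genes were higher and 7.42% lower.

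Summed over all 22 family genes, EphA receptors amounted to 67.1 FPKM on N-SFMA, 87.6 FPKM on L-SFMA and 109 FPKM on NL-SFMA, against 39.5 on SFMA. EphB receptors summed to 88.7, 101 and 93.8 FPKM on N-SFMA, L-SFMA and NL-SFMA and 70.6 FPKM on SFMA. The ephrin-As came to 66.4, 69.2 and 34.3 FPKM on the same 3 hydrogels and 73.8 FPKM on SFMA. The ephrin-Bs summed to 160, 188 and 126 FPKM, against 149 on SFMA. The receptor sum was thus 0.688, 0.733 and 1.27 times the ephrin sum on N-SFMA, L-SFMA and NL-SFMA, against 0.495 times on SFMA. Receptor transcripts outweighed ephrin transcripts per length on NL-SFMA and in no other library. EphA genes made up 43.1%, 46.5% and 53.6% of the receptor sum on N-SFMA, L-SFMA and NL-SFMA and 35.9% on SFMA. These are sums of deposited values from 1 library each, they do not depend on library scaling when taken as ratios, and they were not corrected for the length trend.

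**Figure D4:**
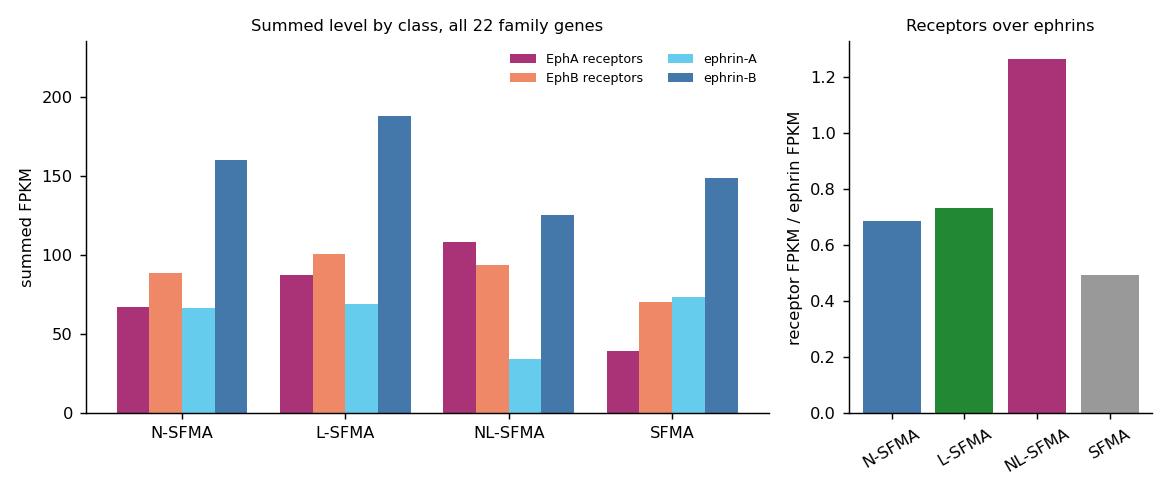
Left, summed FPKM of the EphA receptors, EphB receptors, ephrin-As and ephrin-Bs over all 22 family genes on N-SFMA, L-SFMA, NL-SFMA and SFMA; right, the receptor sum divided by the ephrin sum. The ratio is 1.27 on NL-SFMA and between 0.495 and 0.733 in the other libraries.

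For the EphA receptors NL-SFMA differed less from the hydrogels with 1 letter than from SFMA. Against N-SFMA, NL-SFMA had higher Epha5 (1.90-fold, 1.76 to 2.04), Epha4 (1.77-fold, 1.67 to 1.86), Epha7 (1.46-fold, 1.24 to 1.72) and Epha3 (1.42-fold, 1.32 to 1.53). Against L-SFMA the EphA receptors were 1.22-fold to 1.33-fold higher on NL-SFMA, each beyond counting error. The ephrin-Bs were lower on NL-SFMA than on either hydrogel with 1 letter, except that Efnb2 did not differ from N-SFMA beyond counting error (0.953, 0.876 to 1.04). With the length trend removed Efnb2 was not lower on NL-SFMA, with log2 differences of 0.38 against N-SFMA and 0.06 against L-SFMA. Efnb1 was at 0.603 times its N-SFMA level (0.567 to 0.640) and 0.499 times its L-SFMA level (0.471 to 0.529), and Efnb3 at 0.771 times (0.714 to 0.831) and 0.754 times (0.700 to 0.811). With 2.15% and 0.871% of all genes at least 2-fold higher, and 5.58% and 6.87% lower, on NL-SFMA against N-SFMA and against L-SFMA, 0 of the 10 passed in either direction on the scale of log2(FPKM + 1). At 1.5-fold, Epha4 and Epha5 were higher than on N-SFMA (12.5% of all genes) and Efnb1 lower (18%), and against L-SFMA 0 were higher (7.23%) and Efnb1 was lower (20.9%).

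Reading the names as 2 factors, N was compared without L (N-SFMA against SFMA) and with L (NL-SFMA against L-SFMA), from separate pairs of libraries. This assumes that each letter means the same in both names. All 4 EphA receptors and Ephb1 were higher with N in both pairs. The log2 fold was 0.29 to 0.41 for the EphA receptors with L and 0.66 to 0.93 without it. Efnb1 was lower with N in both pairs, at 0.499 times the level with L present and 0.805 times without it. As measured, Ephb2, Efnb2 and Efnb3 were higher with N in the absence of L and lower with N in its presence. Of these, Ephb2 with L was within counting error with TMM scaling (-0.05), DESeq2 size factors (-0.01) and the length trend removed (-0.08). Efnb2 with L was at 0.06 with the trend removed. Efnb3 kept the opposite directions under each of these settings. The share of all genes with such opposite directions was not counted. The difference of the differences was below 0 for all 10 genes, with a median of -0.55, where 62.0% of 12318 genes with reads in every library were below 0 and their median was -0.18. Its counting interval held 0 for Ephb1 (-0.05, -0.18 to 0.07) and Efna5 (-0.03, -0.58 to 0.51), and both lay above 0 with TMM scaling (0.04 and 0.06), DESeq2 size factors (0.08 and 0.10), a total without mitochondrially encoded genes (0.01 and 0.03) and the length trend removed (0.09 and 0.10).

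**Figure D5:**
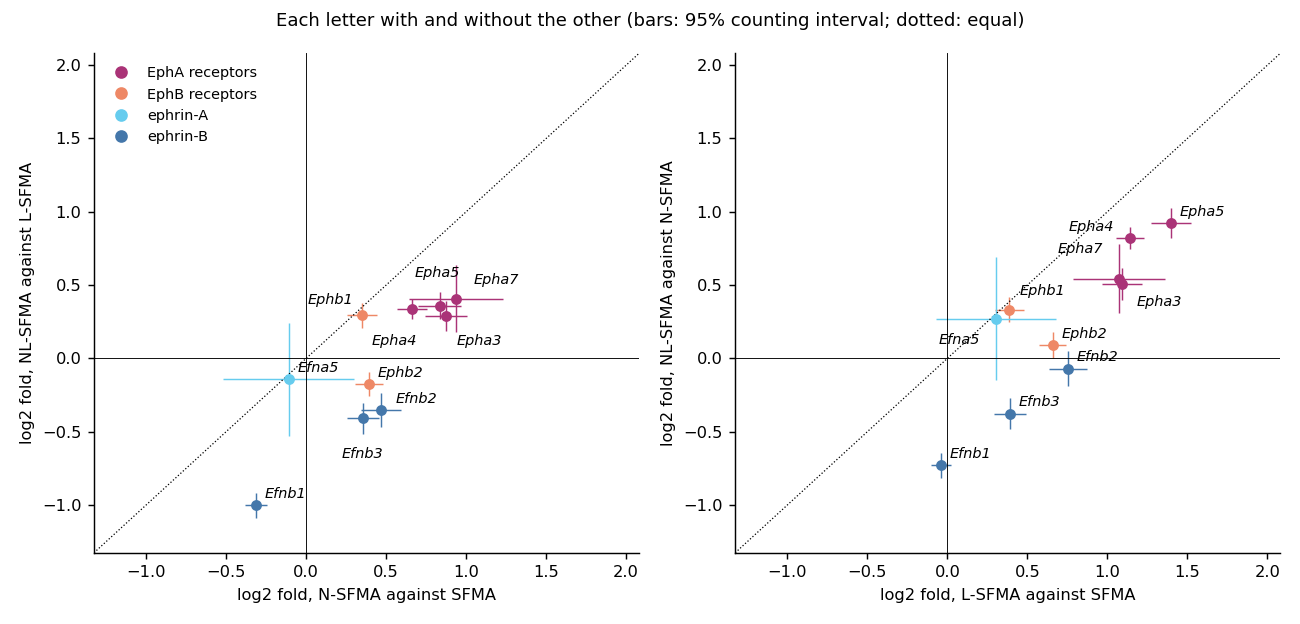
Log2 fold of each gene for N with L (vertical) against N without L (horizontal) on the left, and for L with N against L without N on the right, with 95% counting intervals and a dotted line where both are equal. As measured, Efnb2, Efnb3 and Ephb2 lie below 0 on the vertical and above 0 on the horizontal axis at left.

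Upstream sequence is shown for the 3 of the 10 genes whose window lies wholly before the annotated gene, since they include the gene lower on NL-SFMA (Efnb1), the one with the short model (Efnb2) and a receptor that was higher (Ephb1). The windows are the 250 bases before the start in RefSeq's annotation of GRCr8, which is not a build that the submitters' processing notes name. They lie at chr8:111823760-111824009 on the minus strand for Ephb1, chrX:68297279-68297528 on the plus strand for Efnb1 and chr16:87484965-87485214 on the plus strand for Efnb2. Capitals mark the letters CCAAT on either strand, the core of the CCAAT box.
Ephb1: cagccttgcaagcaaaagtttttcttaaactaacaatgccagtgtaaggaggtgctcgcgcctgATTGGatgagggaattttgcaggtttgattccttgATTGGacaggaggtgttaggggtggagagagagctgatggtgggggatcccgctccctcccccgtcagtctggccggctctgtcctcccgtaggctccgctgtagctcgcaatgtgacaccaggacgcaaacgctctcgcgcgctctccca
Efnb1: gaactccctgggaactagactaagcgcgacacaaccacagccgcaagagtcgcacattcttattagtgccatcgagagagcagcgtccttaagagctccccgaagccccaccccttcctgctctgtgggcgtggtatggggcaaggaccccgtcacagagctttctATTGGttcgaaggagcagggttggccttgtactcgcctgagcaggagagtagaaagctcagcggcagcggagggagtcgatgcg
Efnb2: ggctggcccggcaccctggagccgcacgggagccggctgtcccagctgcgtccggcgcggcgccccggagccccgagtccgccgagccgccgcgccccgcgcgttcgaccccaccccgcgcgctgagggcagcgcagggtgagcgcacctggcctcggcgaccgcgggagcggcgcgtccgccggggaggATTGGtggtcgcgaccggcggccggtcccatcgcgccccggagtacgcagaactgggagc
The Ephb1 window holds the motif in 2 places and the others in 1 place each, and 34.0% of 33469 promoter windows of this length hold it on either strand. Neither GGGCGG, the GC box (30.5% of all windows), nor TATAAA (12.9%) was found in these 3 on either strand. The Efnb2 window is 80.4% G and C with 43 CpG dinucleotides, the Efnb1 window 58.4% with 15 and the Ephb1 window 56.4% with 13, where the medians over all windows are 51.2% and 5. Windows were matched for 8 of the 10 genes; those of Epha3, Epha5, Epha7, Ephb2 and Efna5 overlap the annotated gene and are not printed.

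Downstream of the receptors, 25 of 26 listed genes of forward signalling reached 1 FPKM. On NL-SFMA 6 of them were at least 2-fold higher (10.1% of all genes) and 0 lower (15.1%), with a median of 0.44. They were led by the kinases Rock2 (1.59, with 10.6 FPKM on NL-SFMA and 2.88 FPKM on SFMA) and Rock1 (1.42), the guanine nucleotide exchange factor Kalrn (1.33) and the adaptor Crkl (1.07). With the length trend removed these were 0.77, 0.95, 0.28 and 0.70. Of the 25, 0 were then past 2-fold, where 8.07% of all genes were higher and 7.42% lower. Of the small GTPases in the list, Rhoa was at 226, 187 and 236 FPKM on N-SFMA, L-SFMA and NL-SFMA and 254 FPKM on SFMA. On NL-SFMA against SFMA Rhoa, Rac1 and Cdc42 were at -0.11, -0.02 and -0.29 as measured and at 0.43, 0.33 and -0.43 with the length trend removed. On N-SFMA 0 of the 25 (0.855% of all genes) and on L-SFMA 1 of the 25 (3.32%) were 2-fold higher. The medians there were 0.20 and 0.39.

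The 11 listed genes of reverse signalling, all above 1 FPKM, had a median of 0.06 on each of N-SFMA, L-SFMA and NL-SFMA against SFMA. On NL-SFMA the junction scaffold Afdn was higher (1.14), the exchange factor Dock3 was at 0.98, and the PDZ domain gene Pick1 (-1.13) and the polarity gene Pard6a (-1.54) were lower. Afdn and Dock3 have models over 8 kb and Pick1 and Pard6a models under 2 kb, and without the length trend the 4 were at 0.42, 0.18, -0.60 and -0.79. The median of the 11 on NL-SFMA was then -0.37, and 1 was 2-fold lower (7.42% of all genes). That was Rgs3 (-1.43), a regulator of G protein signalling, at 2.98 FPKM on NL-SFMA and 6.50 FPKM on SFMA. Of 15 listed genes that shed, degrade or dephosphorylate Eph receptors and ephrins, 14 reached 1 FPKM, with a median of 0.05 on NL-SFMA. There 0 were at least 2-fold lower (15.1% of all genes) and 3 higher (10.1%). These were Cbl (1.94) and Cblb (1.22), ubiquitin ligases that act on active receptors, and Ptpro (1.14), a phosphatase that acts on Eph receptors. With the length trend removed 3 of the 14 were 2-fold higher, where 8.07% of all genes were, and 0 lower, where 7.42% were. The higher ones included Cbl (1.43) and Cblb (1.20) but not Ptpro (0.80). Cbl was at 10.7, 12.6 and 23.4 FPKM on N-SFMA, L-SFMA and NL-SFMA and at 5.36 FPKM on SFMA.

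Other guidance genes give a frame for these values. Of the plexins and neuropilins (10 of 11 tested) 6 were at least 2-fold higher on NL-SFMA (10.1% of all genes). Their median was 1.14. The Slit, Robo and netrin genes (14 of 16 tested) had 6 with a median of 0.75. The 6 Eph receptors had 4 and a median of 1.19. With the length trend removed the counts were 3, 2 and 2 (8.07% of all genes) and the medians 0.37, 0.17 and 0.71. The Slit, Robo and netrin list mixes ligands with receptors, while the Eph figures are of receptors only. All 10 Eph and ephrin genes had a median of 0.56, and 0.52 with the trend removed. Plexin and Robo models are longer than those of the Eph receptors, with Plxna4 at 12972 bases and Robo2 at 12257. No test of a difference between these groups of genes was made.

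The genes with the nearest set of 3 differences from SFMA to the median of the Eph receptors, among 8714 named genes at 5 FPKM or more, were Med12, Utp20 and Mon2, at Euclidean distances of 0.03 to 0.05 on the log2 scale. Nearest to the median of the ephrins were Mre11, Gorab and Inpp5b, at 0.03 each. These distances rest on 4 libraries, and the first 3 genes have models of 7294 to 9213 bases.

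Markers of other cell types moved with the hydrogels. Radial glia markers (7 of 7 found) summed to 665, 644 and 749 FPKM on N-SFMA, L-SFMA and NL-SFMA and to 1491 FPKM on SFMA, with none at 0. Vim alone held 535, 486 and 633 FPKM and 1088 FPKM on SFMA, and the median difference of the 7 was -0.69, -0.50 and -0.87. On NL-SFMA against L-SFMA 5 of the 7 were lower and 2 higher, although the sum was higher. Interneuron markers (8 of 8) summed to 251, 225 and 120 FPKM and to 349 FPKM on SFMA. Of these sums Sst alone held 110, 82.3 and 34.5 FPKM and 204 FPKM on SFMA, and the median difference of the 8 markers was -0.05, -0.01 and -0.78. With the length trend removed that median was 0.19, 0.12 and -0.39. Neuronal markers (6 of 6) summed to 3506, 2784 and 2653 FPKM against 2579 on SFMA, a sum that Tubb3 dominates. On the log2 scale the differences on NL-SFMA against SFMA were 1.95 for Dcx, 1.94 for Map2, 0.56 for Snap25, 0.04 for Stmn2, -0.18 for Tubb3 and -0.48 for Rbfox3. With the length trend removed Dcx and Map2 were less far above 0, at 1.15 and 1.19, and the others moved up. Snap25 was then at 0.98, Stmn2 at 0.57, Tubb3 at 0.44 and Rbfox3 at -0.31. The median of the 6 was 0.30 as measured and 0.78 with the trend removed. Erythroid markers (5 of 5) summed to 161, 90.8 and 69.7 FPKM against 546 on SFMA, and microglial markers (6 of 7) to 7.47, 14.8 and 5.64 FPKM against 21.3, with C1qa at 0 on NL-SFMA and P2ry12 at 0 on N-SFMA. Astrocyte markers (5 of 5) summed to 6.13, 8.52 and 6.08 FPKM against 6.93, and oligodendrocyte lineage markers (6 of 6) to 8.56, 9.56 and 6.30 FPKM against 15.2. The part of these markers in the differences of the Eph receptors and ephrins was not tested.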

How the data were processed

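Primary cortical cells of SD rat embryos on 4 hydrogels were measured as poly(A) RNA, with 1 library each and no replicates. Per the submitters' processing notes, reads were aligned with HISAT2 and counted with HTSeq 0.13.5; they name a rat and a human build without a role for either. The deposited count column holds raw whole-number counts. The deposited FPKM column, per the file headers, equals the count over gene model length and summed count; lengths recovered from both were whole to within 8.73e-10 bases. No source used here states the strand setting, so overlapping antisense genes could share reads.

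Differences were taken between log2 values after adding 1 FPKM to each, over the 12394 genes at 1 FPKM or more in at least 1 library. A gene was called past 2-fold. Single genes have folds with exact counting intervals. The length trend is a lowess fit (statsmodels 0.14.6, fraction 0.3). Scaling factors came from edgeR 4.0.16 (TMM) and DESeq2 1.42.0. The calls and intervals were tested on simulated Poisson counts, which hold counting error only and cannot show the effect of spread between cultures. Under a simulated length trend, recovery was required of the trend-removed calls and not of those as measured.

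All 10 genes are named. From each fixed list at most 4 genes were named, those at 5 FPKM or more with the largest differences between NL-SFMA and SFMA, while the small GTPases, Rgs3 and the single marker genes were picked after their values were seen. A gene that this rule names is not reported here. The members and lists were chosen with earlier results of these data known.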

Additional observations from a re-analysis of the deposited data

Results flagged for a closer look

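For 3 genes a letter went with a higher level in 1 pair of libraries and a lower level in the other, both beyond counting error. The difference itself was not tested, since each hydrogel has 1 library. How many of all genes meet the same rule was not counted, so it may not be particular to these 3. Of 12318 genes, 62.0% had a difference of the differences below 0. Efnb3 had a difference of the differences (N with L minus N without L, log2) of -0.76, Efnb2 of -0.82 and Ephb2 of -0.57. For Efnb3, N went with a log2 fold of -0.41 with L and 0.36 without it, and L with -0.38 with N and 0.39 without it. Efnb3 kept both opposite directions beyond counting error under TMM scaling, DESeq2 size factors, a total without mitochondrially encoded genes and with the length trend removed. For Efnb2 the log2 fold of N was -0.35 with L and 0.47 without it, and with the length trend removed it was 0.06 and 0.83. For Ephb2 it was -0.18 and 0.39. The first of these was within counting error with TMM scaling (-0.05), with DESeq2 size factors (-0.01) and with the length trend removed (-0.08).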

How the results depend on the processing

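No paired analysis was possible because each hydrogel has 1 library and no replicate numbers. On NL-SFMA against SFMA 0 genes rather than 1 were 2-fold lower with TMM scaling, with DESeq2 size factors, without mitochondrially encoded genes in the total, with the length trend removed, and with TMM scaling and the trend removed together, an alternative chosen after seeing the data. The 4 higher there were 3 under both settings with the trend removed and with a filter at 5 FPKM. On L-SFMA against SFMA the count of 3 became 1 with the length trend removed, with and without TMM scaling, 6 at a threshold of 1.5-fold, 2 with TMM scaling and with DESeq2 size factors, and 4 with a pseudocount of 0.1 FPKM. At 1.5-fold the count of genes higher on N-SFMA against SFMA was 4 in place of 0. On NL-SFMA against N-SFMA it was 2 higher and 1 lower in place of 0, and on NL-SFMA against L-SFMA 1 lower in place of 0. A pseudocount of 0.1 FPKM also gave 1 lower there, Efnb1. Of the 50 differences of single genes, the sign changed for 1 with TMM scaling, 2 with DESeq2 size factors, 1 without mitochondrially encoded genes and 5 with the length trend removed, all of them of Efnb2, Efnb3 or Efna5, and none was past 2-fold. No sign changed with the other pseudocount, with CPM or without the filter, nor with a filter at 5 FPKM, under which Epha7 and Efna5 had no value. DESeq2 size factors moved the median of all genes by 0.14 on NL-SFMA against L-SFMA and TMM by 0.11. Over all genes, the calls higher and lower were 106 and 328 on N-SFMA, 412 and 377 on L-SFMA and 1251 and 1872 on NL-SFMA, each against SFMA, and on NL-SFMA 267 and 692 against N-SFMA and 108 and 851 against L-SFMA. Past 1.5 times these were, in the same order, 331 and 647, 909 and 618, and then 629 and 1124, and 283 and 1402 with a pseudocount of 0.1 FPKM, which left NL-SFMA against SFMA within 1.5 times. CPM gave 203 higher on N-SFMA, 726 higher on L-SFMA and 456 higher on NL-SFMA against N-SFMA. Without the length trend the lower calls were 165, 161 and 920 against SFMA, 303 against N-SFMA and 366 against L-SFMA, with 261 higher in the last, and with TMM scaling added 166, 157, 921, 307 and 364, with 256 higher. On NL-SFMA against L-SFMA the split was 181 higher and 603 lower with TMM scaling and 213 and 546 with DESeq2 size factors, which gave 315 and 447 on L-SFMA against SFMA.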
